A study of Xenopus laevis with 30 samples.

Results

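The kinesins, the kinetochore and condensin subunits and the other spindle genes that move and hold chromosomes in mitosis were followed through the development of Xenopus laevis, the African clawed frog. Members were the probe sets of the Affymetrix Xenopus laevis Genome 2.0 array whose annotation gave a single gene symbol of these families: symbols starting with kif, cenp, bub, aurk, plk, smc or ncap (d, g and h subunits), and ndc80, nuf2, spc24, spc25, incenp, birc5, cdca8, tpx2, nusap1, prc1, ttk and mad2l1. The rule took 113 of the 32539 probe sets that are not controls. These stand for 62 gene symbols and for 81 of the 11303 gene copies that the annotation names, since X. laevis is an allotetraploid with a long (.L) and a short (.S) copy of many genes. Groups were defined by stage alone: 15 Nieuwkoop-Faber stages with 2 arrays each, namely stages 2, 5 and 9 (cleavage and blastula), 11 (gastrula), 13, 17 and 19 (neurula), 21, 23, 26, 28 and 31 (tail bud), and 37-38, 43 and 48 (tadpole), 30 arrays in all. Every array held total RNA of whole wild-type embryos of mixed sex, several of them pooled into each sample. No embryo was treated and none carried a mutation or transgene. The replicates were said to be biological, but whether their pools came from different parents was not given, so the p-values measure the spread between these pools.

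A dividing cell needs motors and crosslinkers that build the spindle, a kinetochore that ties each centromere to spindle microtubules, a checkpoint that waits until all chromosomes are attached, and condensin, the ring-shaped complex that compacts the chromosomes. The passenger complex (aurora B, incenp, survivin and borealin) corrects wrong attachments and later marks the plane of cytokinesis, while polo-like kinase and aurora A drive entry into mitosis and spindle assembly. In the frog the first cell cycles are rapid, nearly synchronous and run on mRNA stored in the egg, and transcription from the embryo's own genome begins at the mid-blastula stage. Several of these proteins were first studied in Xenopus egg extracts.

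Values are signal units of the array software, scaled by the authors so that the 2% trimmed mean of each array is 500. The array medians lay between 106 and 184 units. A value under its own array's median is called dim here, and a fold against a dim stage is given as "at least", computed with that median in place of the dim value. That floor is a chosen one and not a measured background. Levels of different probe sets are not comparable, so only changes of a probe set are compared. A probe set entered the tests if both arrays of at least 1 stage were above their medians. Of the members 99 did, which cover 75 copies and 59 symbols; kif13b, kif18b and kif19 had no tested probe set. The 14 probe sets left out belong to cenps.L, cenpt.L, ndc80.L, smc3.S, smc6.1.L, ncapd2.S, kif18b.L, kif13b.L, kif19.S, kifap3.L, plk3.S, nusap1.L and, with 2, bub3.L. Members that passed are those bright at some stage, and they are not all members. Where a copy had several probe sets, the values named below are those of its brightest one, unless stated otherwise.

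The stage labels were read beside marker genes, by their signal summed over the list. The lists were chosen with earlier results of these data known, so this is not an independent check of the labels. The list of 5 maternal genes lay between 208 and 224 units at stage 48, against 37915 to 41256 at stage 2. The list of 6 gastrula genes lay between 55959 and 59073 units at stage 11, against 59.0 to 83.1 at stage 5. The list of 3 muscle and blood genes lay between 61638 and 64637 units at stage 48, against 10.3 to 31.1 at stage 2. All 30 arrays had their own replicate as the most similar array, with a correlation of log2 values of 0.974 to 0.985 between the 2 arrays of a stage.

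The summed signal of the family was highest at stage 2, the earliest one sampled, and lowest at stage 48, a feeding tadpole. Bright probe sets weigh most in such a sum, and the median member changed by 0.02 (log2) at stage 5 over 2. The summed signal of the 75 copies was, as a percentage of stage 2, 91.4% at stage 5, 77.1% at stage 9, 67.2% at stage 11, 48.8% at stage 13 and 41.4% at stage 17. It was then 37.6% at stage 19, 36.6% at stage 21, 34.4% at stage 23, 30.8% at stage 26, 33.9% at stage 28 and 32.5% at stage 31. The last stages had 29.1% at stages 37-38, 25.6% at stage 43 and 12.5% at stage 48. Most of the decline on this scale thus lay between stages 5 and 17 and after stage 43. Between these the sum declined more slowly, from 41.4% at stage 17 to 25.6% at stage 43. In whole embryos, fewer cells of a dividing type and less RNA per cell cannot be told apart. One-cycle labelling primes on the poly(A) tail, so the amount of an mRNA and the length of its tail cannot be told apart either.

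**Figure D1:**
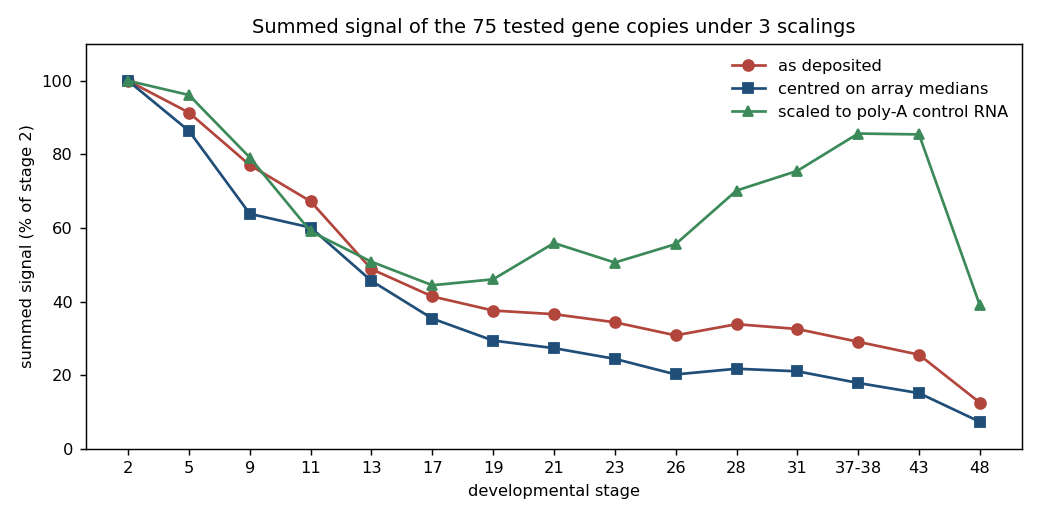
Summed signal of the 75 tested gene copies (y axis, percentage of stage 2) over the 15 stages (x axis), for the deposited scaling, for median centring and for scaling to the poly-A control RNAs. The deposited values end at 12.5% at stage 48, median centring at 7.33% and poly-A scaling at 39.0%; with poly-A scaling the sum is 85.7% at stages 37-38, against 44.4% at stage 17.

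The shape after stage 17 depends on the scaling. The deposited values hold each array at the same trimmed mean, whereas RNA controls with poly-A tails (36 probe sets of 4 bacterial transcripts) give another scale if an equal amount of them was added to each sample, which was not stated. The geometric mean of these controls was 532 units at stage 2, 604 at stage 11, 351 at stage 21, 228.5 at stage 31 and 172 at stage 48. Scaling to them shifts every probe set alike, by log2 0.08 for stage 5 over 2, -0.26 for 11 over 5, 0.78 for 21 over 11, 0.62 for 31 over 21, 0.41 for 48 over 31 and 1.63 for 48 over 2. It does not alter how the members moved relative to the other probe sets. With it, the summed signal of the family was 59.1% of stage 2 at stage 11, 44.4% at stage 17, 55.9% at stage 21, 75.5% at stage 31, 85.7% at stages 37-38, 85.4% at stage 43 and 39.0% at stage 48. The fall before stage 17 and the fall between stages 43 and 48 were thus present on both scales. The slower decline between stages 17 and 43 was present on the deposited scale and not with poly-A scaling.

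Of the 99 tested members, 88 had their highest mean at one of stages 2 to 11 and 81 their lowest at stage 48. Over all 23403 tested probe sets these shares were 42.8% and 22.0%. With poly-A scaling the counts were 54 and 44 members, against 19.8% and 6.44% of all tested probe sets. The stage of the maximum was 2 for 34 members, 5 for 20, 9 for 18 and 11 for 16. The other 11 peaked later. Those at stage 13 were smc2.L, smc4.L, ncapg2.L, 1 probe set of plk4.L and 2 probe sets of smc1a.L. The rest were ttk.S at stage 19, and plk2.L, plk2.S, cenpv.L and 1 probe set of cenpp.L at stage 48. With poly-A scaling smc2.L and this probe set of plk4.L were highest at stage 43 and smc4.L, ncapg2.L and ttk.S at stages 37-38, while plk2.L, plk2.S and cenpv.L again peaked at stage 48. At stage 48 the median member held 13.0% of its stage 2 signal (40.7% with poly-A scaling). By role this median was 7.12% for the passenger complex and mitotic kinases, 9.68% for the spindle factors, 11.2% for the mitotic kinesins, 13.9% for the checkpoint, 14.1% for condensin, 21.1% for centromere and kinetochore, 34.0% for cohesin with smc5 and smc6, and 42.6% for the other kinesins. On the deposited scale, of the 92 members above the array median at stage 2, 12 were first under 50% of their stage 2 level at stage 5 or 9. It was 18 at stage 11, 21 at stage 13 and 39 at stage 17 or later, and 2 never were. These counts were not made for all tested probe sets or with poly-A scaling, so they describe the members on 1 scale only.

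**Figure D2:**
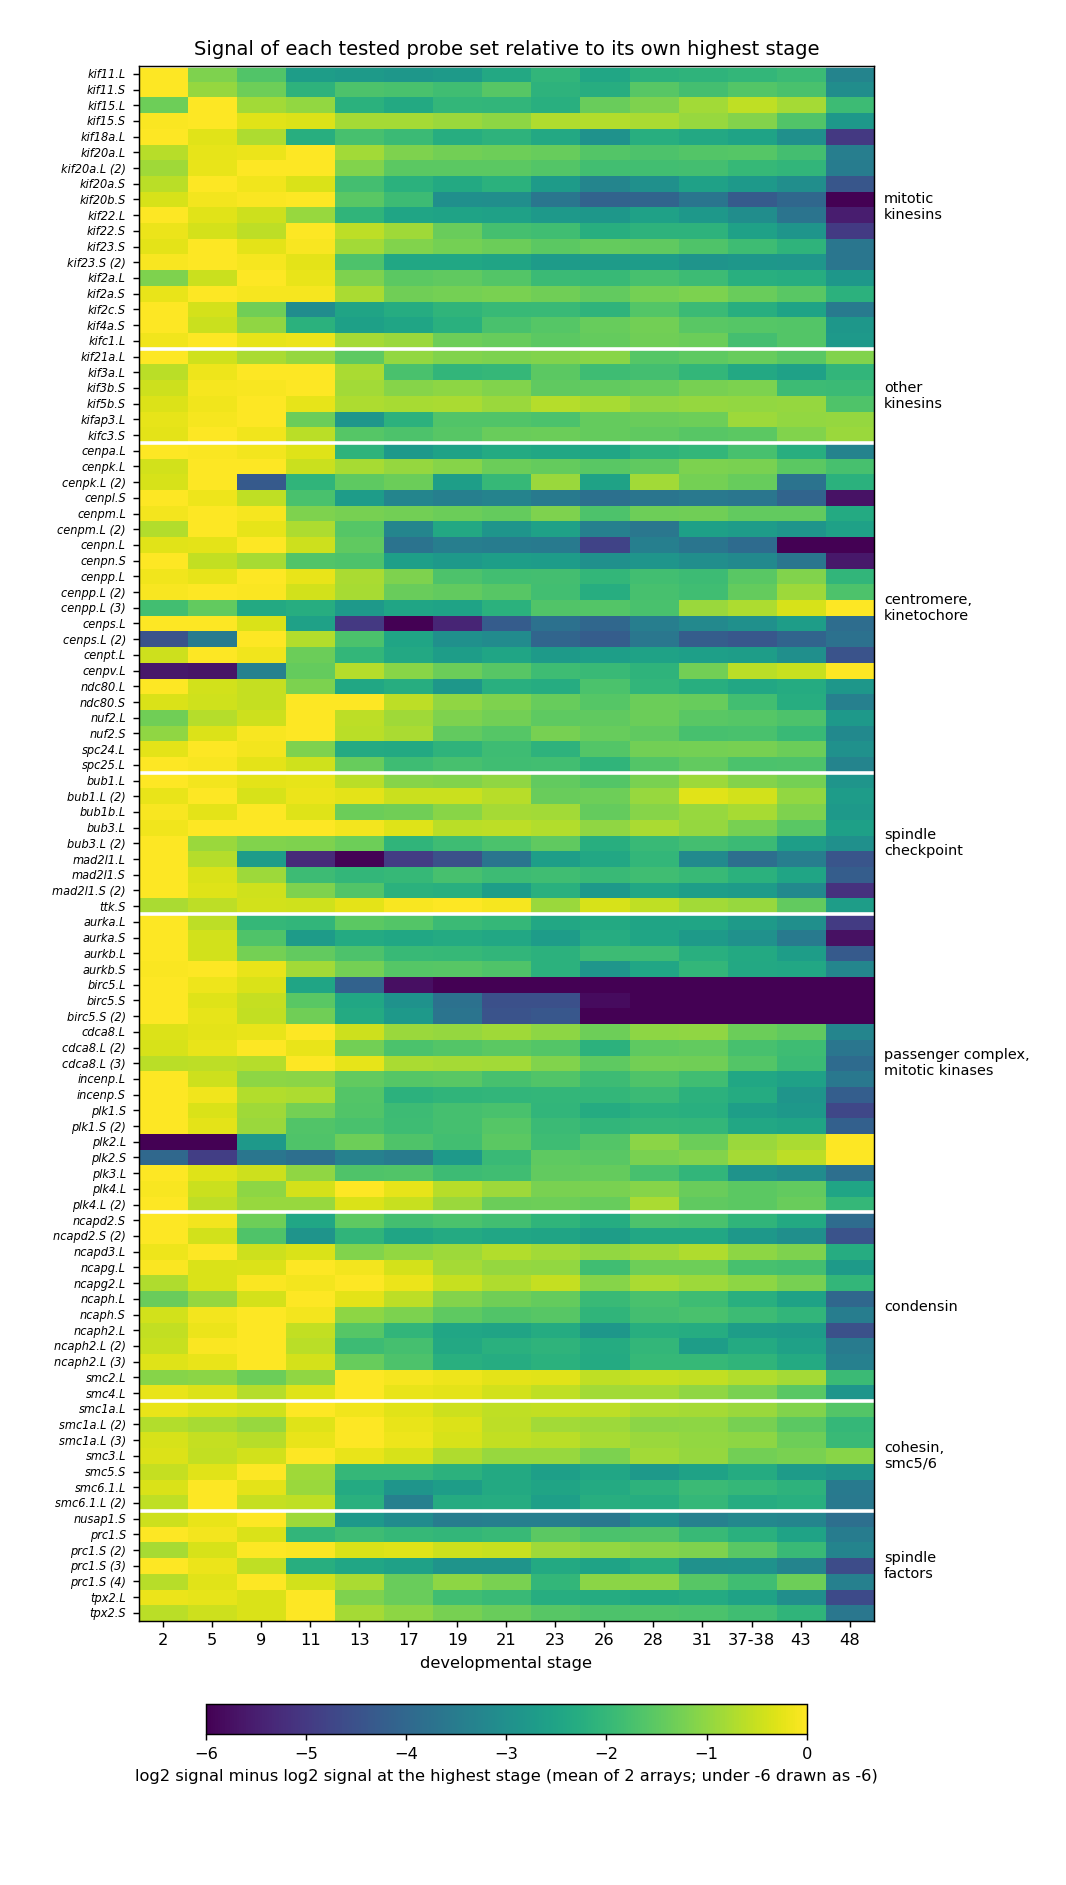
Level of each of the 99 tested members (lines, grouped by role) at the 15 stages (columns), as log2 of the stage mean relative to the member's own highest stage, with the lightest colour at the peak and values under -6 drawn as -6. For 88 members the peak is at stages 2 to 11, and for 81 the lowest level is at stage 48; cenpv.L and both copies of plk2 run the other way.

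Each of 6 pairs of stages was compared in 1 limma model of all 30 arrays, with Benjamini-Hochberg adjustment over all tested probe sets and a threshold of 0.05. Neighbouring comparisons share the arrays of the stage between them. At stage 5 against stage 2, both in cleavage, 16 of the 99 members were higher and 23 lower, where 18.3% of all tested probe sets were higher and 13.7% lower; the median member changed by 0.02 (log2). At stage 11, mid-gastrula, against stage 5, 17 members were higher and 51 lower, where 33% and 34% of all tested were, with a median member change of -0.34. At stage 21 against stage 11, 10 were higher and 76 lower, where 39.7% and 39.9% of all tested were, with a median of -0.85. At stage 31 against stage 21, 11 were higher and 30 lower, where 26.9% and 25.4% of all tested were, with a median of -0.14. At stage 48 against stage 31, 7 were higher and 80 lower, where 29.7% and 39.7% of all tested were, with a median of -1.58. Over the whole span, stage 48 against stage 2, 4 were higher and 94 lower, where 44.7% and 45.7% of all tested were, with a median of -2.95. The median of all tested probe sets was between -0.13 and 0.02 in each of these 6 comparisons. Changes over the 15 stages as a whole passed the F test for 99 of 99 members, but so did 99.8% of all tested probe sets.

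**Figure D3:**
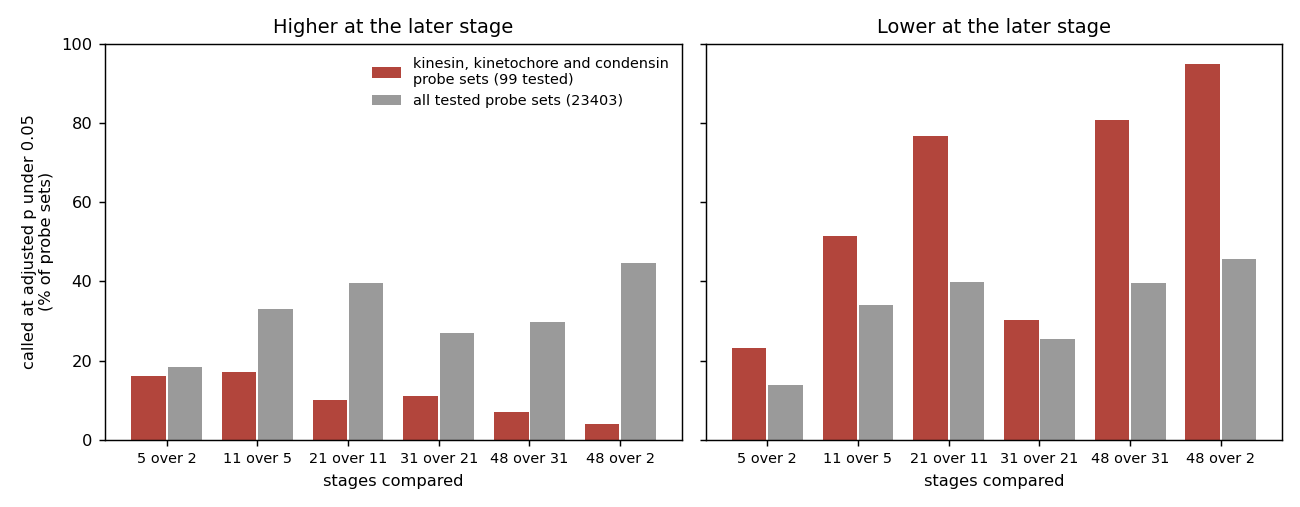
Share (y axis, %) of the 99 tested members (red) and of all 23403 tested probe sets (grey) called higher (left) or lower (right) at an adjusted p under 0.05 in each of the 6 comparisons (x axis, later over earlier stage). The lower members stand furthest above all tested probe sets for stages 21 over 11, 48 over 31 and 48 over 2 (76, 80 and 94 members) on the deposited scale drawn here; poly-A scaling gives 37, 73 and 71, and 17.0%, 22.3% and 16.7% of all tested probe sets.

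The counts of higher and lower members moved with the scaling, and so did those of all tested probe sets. Poly-A scaling gave 6 higher and 5 lower members for stage 5 over 2, where 10.2% and 4.17% of all tested probe sets were higher and lower. It gave 5 and 51 for 11 over 5, where 21.0% and 37.2% of all were, and 26 and 37 for 21 over 11, where 56.1% and 17.0% were. For 31 over 21 it gave 47 and 2, where 53.1% and 3.49% of all were, so the members' counts there lay near those of all probe sets. It gave 9 and 73 for 48 over 31, where 38.0% and 22.3% of all were, and 11 and 71 for 48 over 2, where 68.1% and 16.7% were. Median centring gave 10 and 27 for stage 5 over 2, where 14.3% and 18.8% of all were, and 5 and 52 for 31 over 21, where 19.4% and 37.7% were. Relative to all tested probe sets, the median member was lower by log2 0.84 at stage 21 over 11, 1.45 at 48 over 31 and 2.91 at 48 over 2 on the deposited scale. Of the called members, poly-A scaling turned the sign of 0 of 39 for stage 5 over 2, 3 of 68 for 11 over 5, 22 of 86 for 21 over 11, 24 of 41 for 31 over 21, 1 of 87 for 48 over 31 and 16 of 98 for 48 over 2. Counts by role are given on the deposited scale first and with poly-A scaling after it where they differ most. Each is to be read against the share of all tested probe sets called in the same comparison and scale, given above. In the 24 counts by role that are 0 in limma on the deposited scale, 3 members in all had an unadjusted p under 0.05.

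Among the mitotic kinesins, 18 probe sets of 11 symbols were tested, and kif11, kif2c and kif4a fell early, while kif20a, kif20b, kif22.S and kif23 kept most of their stage 2 level or more to stage 11. At stage 5 against 2, 6 were higher and 4 lower; at stage 11 against 5, 1 and 10; at stage 21 against 11, 4 and 13; at stage 31 against 21, 3 and 6; at stage 48 against 31, 0 and 18; and at stage 48 against 2, 0 and 18. Poly-A scaling gave 5 and 10 at 21 over 11 (56.1% and 17.0% of all tested probe sets). It gave 7 and 0 at 31 over 21 (53.1% and 3.49% of all). The motor kif11 (Eg5) slides the antiparallel microtubules of the spindle apart. Probe set kif11.L had 2155 and 2075 units at stage 5, against 4645 and 4795 units at stage 2. It fell 2.23-fold within cleavage (log2 change -1.16, SE 0.08, adjusted p = 1.92e-09), and no array of one stage reached those of the other. The .S copy fell as well, with 2615 and 2734 units at stage 5, against 4999 and 5391 units at stage 2, a 1.94-fold change (log2 change -0.96, SE 0.14, adjusted p = 3.80e-05). The kinesin kif2c (MCAK) removes tubulin from microtubule ends at centromeres. It had 569 and 555 units at stage 11, against 3594 and 3672 units at stage 5. That was a 6.46-fold fall without overlap (log2 change -2.69, SE 0.06, adjusted p = 2.55e-19). Its level then rose 2.18-fold, with 1179.7 and 1278 units at stage 21, against 569 and 555 units at stage 11 (log2 change 1.13, SE 0.06, adjusted p = 2.42e-13). Its mean was 408 units at stage 48, against 1575 at stage 28, so it had a trough at gastrulation and another, lower maximum. The chromokinesin kif4a.S, which arranges chromosome arms and the midzone, followed the same order on the deposited scale. Its means were 2717, 1938, 1369.5, 602 and 453 units at stages 2, 5, 9, 11 and 13, and 821, 1126 and 385 at stages 21, 28 and 48. With poly-A scaling kif2c.S was again highest at stage 2, but kif4a.S was highest at stage 43.

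Several other mitotic kinesins held their level to stage 11 or rose during cleavage. Kinesin kif20b acts in cytokinesis and its probe set kif20b.S had 2266 and 2185 units at stage 11, against 1719.5 and 1756 at stage 2. It then fell 8.22-fold, with 285 and 257 units at stage 21, against 2266 and 2185 units at stage 11 (log2 change -3.04, SE 0.12, adjusted p = 9.88e-15), the largest fall of its role in that interval. At stage 48 it was dim, with 31.6 and 37.0 units. The midzone motor kif20a (Mklp2), which brings the passenger complex to the spindle midzone, had 4605 and 4431 units at stage 5, against 3164 and 3592 units at stage 2 for its .L copy, a 1.34-fold rise (log2 change 0.42, SE 0.08, adjusted p = 4.59e-04; 0.0644 is its adjusted p with poly-A scaling). The .S copy had 2511 and 2652 units at stage 5, against 1650.4 and 1712 units at stage 2, a 1.53-fold rise (log2 change 0.62, SE 0.14, adjusted p = 0.0019). These arrays did not overlap either. A further rise of kif20a.L at stage 11 over 5 (log2 0.22) had the opposite sign with quantile normalization, at -0.08, and with poly-A scaling, at -0.04, and lost the threshold with median centring and without stage 5 replicate 2 or stage 11 replicate 1. Spindle motor kif15 (first described in frog eggs as Xklp2) rose 2.49-fold in its .L copy, with 869.6 and 829 units at stage 5, against 379 and 306 units at stage 2 (log2 change 1.32, SE 0.19, adjusted p = 2.47e-05). It was higher again at stage 31 over 21, with 404 and 557 units at stage 31, against 203 and 205 units at stage 21, 2.33-fold (log2 change 1.22, SE 0.19, adjusted p = 2.27e-05), and both rises held with poly-A scaling. Chromokinesin kif22 (Kid) pushes chromosome arms outward, and kif22.S had 61.2 and 137 units at stage 48, against 625 and 704 units at stage 31. It fell at least 3.62-fold (log2 change -2.86, SE 0.21, adjusted p = 4.90e-10), although its 2 arrays at stage 48 differed more than those at stage 31. The smallest loss over the span on the brightest probe sets was that of kif15.L (log2 -0.57; 1.06 with poly-A scaling), followed by kif2a.L and kif2a.S (-1.68 and -1.93; -0.05 and -0.30, neither called, with poly-A scaling); kif2a, a depolymerase of spindle poles, also acts in neurons of mammals.

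**Figure D4:**
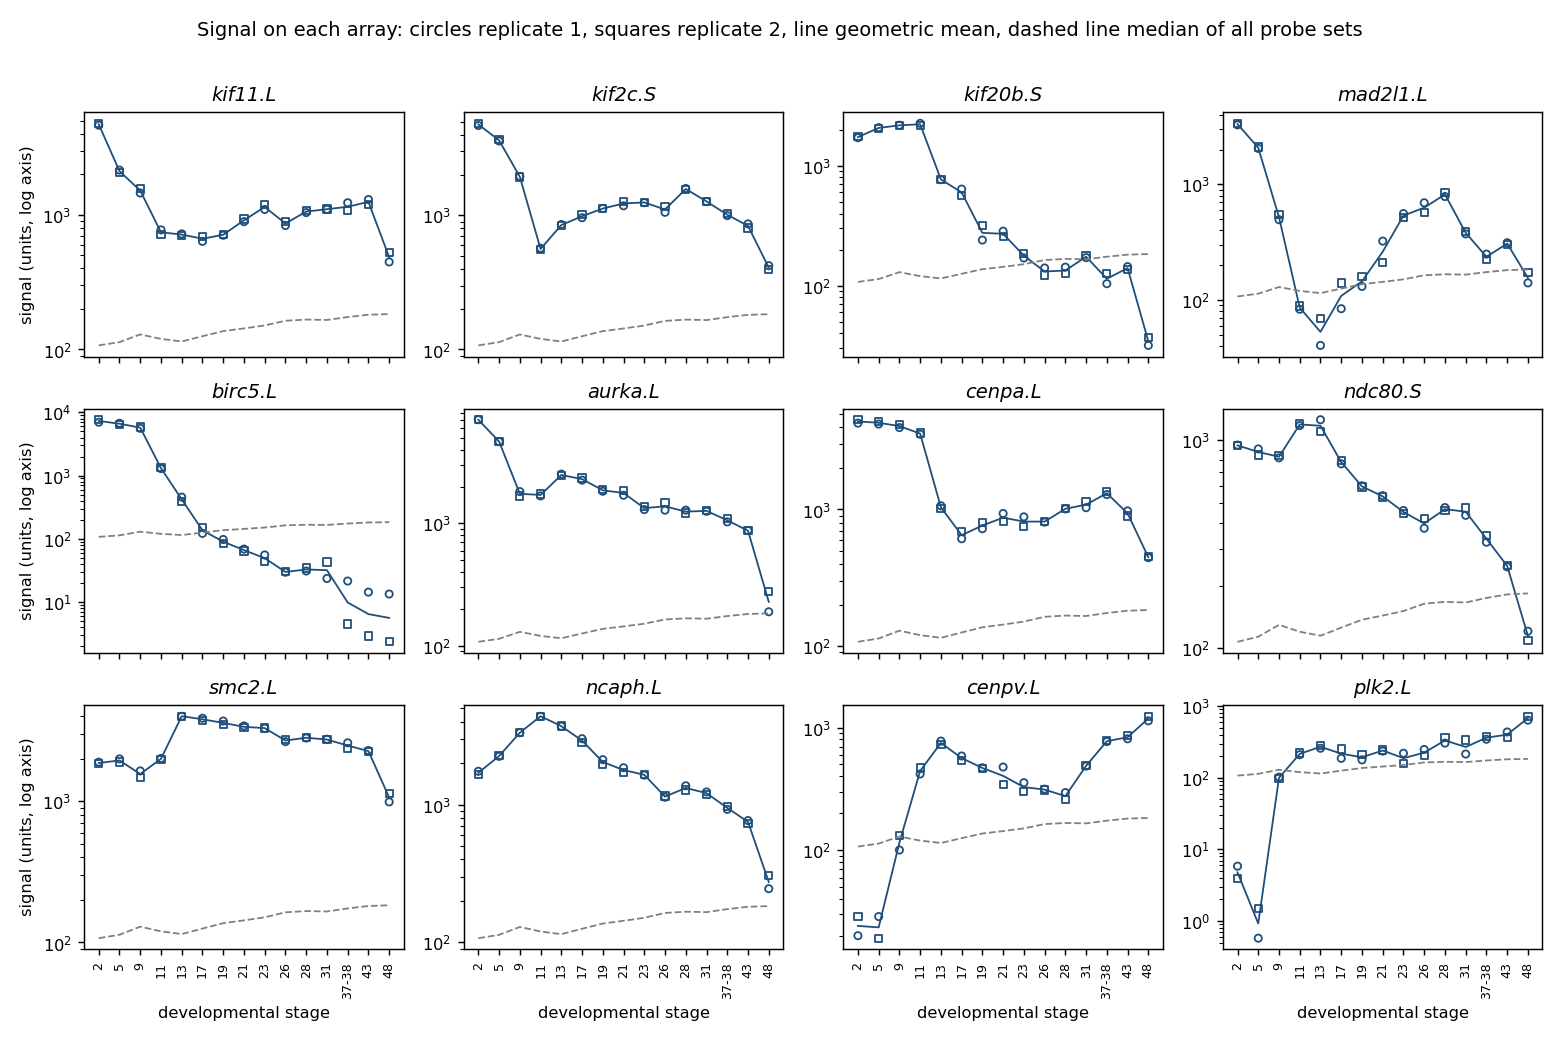
Signal (y axis, units of the array software on a log axis that differs between panels) of 12 members over the 15 stages (x axis). Each circle or square is 1 array, the line is the geometric mean of both and the dashed line the median of all probe sets. kif2c.S and mad2l1.L have early minima at stages 11 and 13, kif20b.S and cenpa.L fall after stage 11, birc5.L passes under the median and stays there, smc2.L peaks at stage 13 on this deposited scale (stage 43 with poly-A scaling), and cenpv.L and plk2.L are highest at stage 48.

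The other kinesins (6 tested probe sets) carry cargo rather than chromosomes and kept more of their signal. Of these 6, at stage 5 over 2, 2 were higher and 1 lower; at 11 over 5, 0 and 3; at 21 over 11, 0 and 5; at 31 over 21, 1 and 0; at 48 over 31, 3 and 2; and at 48 over 2, 0 and 6. With poly-A scaling the counts were 2 and 1 at 21 over 11 (56.1% and 17.0% of all tested probe sets). They were 4 and 0 at 31 over 21 (53.1% and 3.49% of all). With that scaling the comparison of stage 48 over 2 turned for every one of the 6, with 3 higher and 0 lower (68.1% and 16.7% of all). The 3 subunits of kinesin-2, the motor of transport into cilia, were kif3a, kif3b and the adaptor kifap3. The adaptor kifap3.L had 390.0 and 354 units at stage 11, against 898 and 900.0 units at stage 5, a 2.42-fold fall (log2 change -1.27, SE 0.09, adjusted p = 1.90e-10). It had 126 and 139.8 units at stage 13. Later it had 508 and 475 units at stage 48, against 382 and 370.4 units at stage 31, 1.3-fold higher (log2 change 0.38, SE 0.09, adjusted p = 0.0012). Its arrays did not overlap in either comparison. The motor subunit kif3a.L had 116 and 132 units at stage 21, against 508 and 487 units at stage 11, at least 3.47-fold lower (log2 change -2.01, SE 0.15, adjusted p = 1.41e-10) and dim at the later stage. Conventional kinesin kif5b, which moves organelles, had 866 and 714 units at stage 48, against 1301 and 1252 units at stage 31, a 1.62-fold fall (log2 change -0.70, SE 0.07, adjusted p = 5.12e-08; not called with poly-A scaling, at -0.29). The minus-end motor kifc3 had 234 and 229 units at stage 48, against 133 and 161 units at stage 31, a change of at least 1.39-fold (log2 change 0.66, SE 0.12, adjusted p = 4.93e-05). The list of 10 multiciliated cell genes had a summed signal of 1253 to 1288 units at stage 2, 6731 to 7116 at stage 23 and 2683 to 2864 at stage 48. On their brightest probe sets 8 of these 10 genes were dim on both arrays at stage 2, so the signal filter favoured higher calls over that stage. Of the list's 16 probe sets, 12 were higher and 2 lower at stage 48 over 2, where 44.7% and 45.7% of all tested were. At 48 over 31, 0 were higher and 9 lower, where 29.7% and 39.7% of all tested were. The part of this list in the levels of these kinesins was not tested.

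Of the 21 tested centromere and kinetochore probe sets, 3 were higher and 1 lower at stage 5 over 2, 4 and 13 at 11 over 5, 0 and 18 at 21 over 11, 4 and 4 at 31 over 21, 2 and 12 at 48 over 31, and 2 and 18 at 48 over 2. On the poly-A scale they were 3 and 9 at 21 over 11 (56.1% and 17.0% of all tested probe sets). They were 9 and 0 at 31 over 21 (53.1% and 3.49% of all). The centromeric histone cenpa, a variant of histone H3 that marks where the kinetochore forms, had means of 4418, 4316, 4085, 3594, 1037 and 649.7 units at stages 2, 5, 9, 11, 13 and 17. It had 935 and 811 units at stage 21, against 3556 and 3632 units at stage 11, a 4.13-fold fall (log2 change -2.04, SE 0.08, adjusted p = 1.07e-14). Its arrays at stages 11 and 21 lay far apart. Afterwards it was higher at stage 31 over 21, with 1030.1 and 1142 units at stage 31, against 935 and 811 units at stage 21 (log2 change 0.32, SE 0.08, adjusted p = 0.0033), also with poly-A scaling but not called with median centring (0.11), and had a mean of 446 units at stage 48, against 1316 at stages 37-38. For the reader of centromeric nucleosomes, cenpn, the .S copy had 2628 and 3003 units at stage 5, against 4013 and 4208 units at stage 2, 1.46-fold lower (log2 change -0.55, SE 0.10, adjusted p = 2.82e-04; not called with poly-A scaling, at -0.47). The .L copy, with means of 159.6, 162, 193 and 141 units at stages 2, 5, 9 and 11, was highest at stage 9. At the end of the series cenpn.S had 88.5 and 80.8 units at stage 48, against 517 and 491 units at stage 31, at least 2.75-fold lower (log2 change -2.58, SE 0.10, adjusted p = 6.81e-15). Its partner cenpl.S had 1574 and 1517 units at stage 11, against 4526 and 4700.2 units at stage 5, 2.99-fold lower (log2 -1.58). It had 87.5 and 109.7 units at stage 48, against 4982 and 5219 units at stage 2, at least 27.8-fold lower.

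The Ndc80 complex (ndc80, nuf2, spc24 and spc25) grips the microtubule at the outer kinetochore, and its subunits did not share a course. Both copies of nuf2 were higher at stage 5 over 2: nuf2.S had 405 and 370.2 units at stage 5, against 251 and 228 units at stage 2, 1.62-fold (log2 change 0.70, SE 0.17, adjusted p = 0.0043; 0.0576 is its adjusted p with quantile normalization), and nuf2.L had 1014 and 866 units at stage 5, against 597 and 619 units at stage 2, 1.54-fold (log2 change 0.63, SE 0.11, adjusted p = 1.35e-04). Neither pair of arrays overlapped. At stage 11 over 5, nuf2.L (0.67, log2) and ndc80.S (0.44) were higher while ndc80.L (-0.76), spc24.L (-1.16) and spc25.L (-0.39) were lower. With poly-A scaling the first 2 were 0.41 and 0.18 and neither was called. The globular subunit spc24.L had 1465 and 1308 units at stage 11, against 3149.5 and 3054 units at stage 5, 2.24-fold lower (log2 change -1.16, SE 0.10, adjusted p = 1.42e-09). From its lowest mean before stage 48, 612 units at stage 17, it was higher at stage 31 over 21, with 1308 and 1290.3 units at stage 31, against 874 and 844 units at stage 21 (log2 change 0.60, SE 0.10, adjusted p = 3.70e-05). That direction held with poly-A scaling, and ndc80.S and nuf2.L, lower in the same comparison on the deposited scale, had the opposite sign with it (0.37 and 0.35, not called). At stage 48 the means of all these brightest probe sets of the 4 subunits were below those of every earlier stage on the deposited scale. For ndc80.L the values were dim and overlapped, with 61.8 and 53.2 units at stage 48, against 51.5 and 65.2 at stage 19.

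Several probe sets of 1 copy disagreed in this role. One probe set of cenps.L, a histone-fold subunit, had 135 and 147 units at stage 11, against 811 and 858 units at stage 5, and another had 252 and 181 units at stage 11, against 25.3 and 35.9 units at stage 5. The first was called lower (-2.56, log2) and the second higher (2.83). Of 3 probe sets of cenpp.L, 1 was higher at stage 48, with 185 and 546 units at stage 48, against 78.3 and 105 units at stage 2, and the other two were lower (1 of them with a log2 change of 0.00 with poly-A scaling). Which of them reads the named transcript was not tested. The member cenpv.L, named for a protein of human centromeres, ran against its role. It had 418 and 469 units at stage 11, against 28.8 and 19.2 units at stage 5, at least 3.91-fold higher (log2 change 4.23, SE 0.19, adjusted p = 3.97e-14). It had 1134 and 1238 units at stage 48, against 485 and 489.8 units at stage 31, 2.43-fold higher again (log2 change 1.28, SE 0.19, adjusted p = 4.02e-06), and it was highest at stage 48, where most members were lowest.

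The spindle checkpoint had 9 tested probe sets. Of these, 0 were higher and 3 lower at stage 5 over 2, 0 and 3 at 11 over 5, 1 and 6 at 21 over 11, 1 and 2 at 31 over 21, 0 and 9 at 48 over 31, and 0 and 9 at 48 over 2. With poly-A scaling the counts were 3 and 1 at 21 over 11 (56.1% and 17.0% of all tested probe sets). They were 6 and 0 at 31 over 21 (53.1% and 3.49% of all). The checkpoint protein mad2l1 (Mad2), which holds back the anaphase-promoting complex, had the deepest fall of any member at stage 11 over 5 on its .L copy. Its arrays read 3269.5 and 3372 units at stage 2, 2046 and 2101 at stage 5, 495 and 546 at stage 9, 83.2 and 88.6 at stage 11 and 40.5 and 69.3 at stage 13. The fall at stage 11 over 5 was at least 17.3-fold (log2 change -4.59, SE 0.23, adjusted p = 5.46e-13), with both arrays of stage 11 dim. The smaller fall at stage 5 over 2 (log2 change -0.68, SE 0.23, adjusted p = 0.0293) lost the threshold with poly-A scaling and without either array of stage 2 or of stage 5. The probe set came back, with 323 and 212 units at stage 21, against 83.2 and 88.6 units at stage 11, at least 2.18-fold higher (log2 change 1.61, SE 0.23, adjusted p = 2.72e-06), to 785 and 854 units at stage 28, before 373 and 389.8 at stage 31 and 140.5 and 172 at stage 48. The .S copy had no such trough: its means were 5644, 4478, 3059, 1528, 1389.8 and 1584 units at stages 2, 5, 9, 11, 13 and 28. It then had 269 and 331 units at stage 48, against 1432 and 1492 units at stage 31, 4.9-fold lower (log2 change -2.29, SE 0.07, adjusted p = 1.18e-16).

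The other checkpoint genes kept most of their stage 2 level to stage 11 on their brightest probe sets. Kinase bub1, which recruits the checkpoint to kinetochores, had 1222 and 1309 units at stage 21, against 2107 and 2155 units at stage 11 (log2 change -0.75, SE 0.12, adjusted p = 7.37e-06; 0.03 with poly-A scaling), and arrays without overlap. The adaptor bub3.L, which also has non-mitotic partners, had means of 4268, 4618, 4337, 3082, 2402 and 780.2 units at stages 2, 11, 13, 21, 31 and 48. The related kinase bub1b (BubR1) had 236 and 259 units at stage 48, against 1549.9 and 1655 units at stage 2, 6.49-fold lower (log2 change -2.70, SE 0.09, adjusted p = 8.10e-17). Kinase ttk (Mps1), which starts checkpoint signalling, had means of 105, 177, 99.5 and 28.2 units at stages 2, 19, 31 and 48, and was highest at stage 19 on the deposited scale. Its means at stages 2, 31 and 48 lay under the mean array medians there (107, 166 and 183 units). At stage 19 that median was 137 units.

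Of the passenger complex and mitotic kinases (19 tested probe sets), 0 were higher and 10 lower at stage 5 over 2, 4 and 12 at 11 over 5, 2 and 13 at 21 over 11, 1 and 8 at 31 over 21, 2 and 14 at 48 over 31, and 2 and 17 at 48 over 2. Poly-A scaling gave 5 and 5 at 21 over 11 (56.1% and 17.0% of all tested probe sets). It gave 7 and 2 at 31 over 21 (53.1% and 3.49% of all). Survivin (birc5), the subunit that docks the passenger complex to chromatin, fell below the array median in both copies. Its copy birc5.L had arrays of 6999 and 7657 units at stage 2, 5604 and 5883 at stage 9, 1291 and 1332 at stage 11, 457 and 388 at stage 13 and 68.8 and 63.9 at stage 21. The fall was at least 9.15-fold at stage 21 over 11 (log2 change -4.31, SE 0.74, adjusted p = 4.06e-05) and at least 39.9-fold at stage 48 over 2, where its arrays read 13.4 and 2.35 units. The .S copy fell too. On its probe set without the suffix for shared sequence it had 575 and 501 units at stage 21, against 4756 and 4920.4 units at stage 11, a 9.01-fold fall (log2 change -3.17, SE 0.17, adjusted p = 1.48e-12). It then had 64.8 and 49.8 units at stage 31, against 575 and 501 units at stage 21, at least 3.24-fold lower (log2 change -3.24, SE 0.17, adjusted p = 1.26e-11), one of the falls of that comparison that kept its sign with poly-A scaling. From stage 28 on both copies were dim on all arrays.

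On their brightest probe sets survivin's partners were above the array median at stage 31. Borealin (cdca8.L) had means of 4979.5, 6183, 3425, 3099 and 648 units at stages 2, 11, 21, 31 and 48 on its brightest probe set. The scaffold incenp had 5829, 2826, 1727, 1621 and 481 units for .L and 4517, 2702, 1094, 1013 and 242 for .S at the same stages. The kinase of the complex had 6102, 2246, 1476, 1309 and 311 units for aurkb.L and 1928, 1126, 648, 489 and 212 for aurkb.S there, with 1 array of aurkb.S dim at stage 48. At stage 31, by contrast, the probe sets of birc5.L and birc5.S were dim.

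Aurora A, the kinase of spindle poles, fell early in both copies. Probe set aurka.L had 4679.6 and 4701 units at stage 5, against 7071 and 7064 units at stage 2, 1.51-fold lower (log2 change -0.59, SE 0.11, adjusted p = 2.57e-04; not called with poly-A scaling, at -0.52). Probe set aurka.S had 594 and 724 units at stage 11, against 3228 and 3189 units at stage 5, 4.89-fold lower (log2 change -2.29, SE 0.11, adjusted p = 1.23e-13), and 72.8 and 88.1 units at stage 48, against 666 and 618 units at stage 31, at least 3.5-fold lower (log2 change -3.00, SE 0.11, adjusted p = 1.91e-15). In each of these the arrays of the 2 stages did not overlap. Polo kinase plk1.S, which acts from mitotic entry to cytokinesis, had 10879, 8599, 5987, 4577, 3275, 2343, 1558 and 414 units at stages 2, 5, 9, 11, 21, 31, 43 and 48. Its last fall was 5.7-fold, with 364 and 463 units at stage 48, against 2258 and 2428 units at stage 31 (log2 change -2.51, SE 0.08, adjusted p = 4.48e-16). The centriole kinase plk4.L ended at 98.8 and 126 units at stage 48, both dim, against 623 and 567 at stage 2.

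The related kinase plk2, which in mammals acts in neurons and in the stress response as well as at centrioles, was dim at stages 2 and 5 and rose in both copies. Probe set plk2.L had 209.7 and 222 units at stage 11, against 0.58 and 1.48 units at stage 5, at least 1.9-fold higher (log2 change 7.87, SE 0.31, adjusted p = 7.02e-15). It had 637 and 725 units at stage 48, against 215 and 337 units at stage 31, 2.53-fold higher (log2 change 1.34, SE 0.31, adjusted p = 7.33e-04). Probe set plk2.S had 424 and 454 units at stage 31, against 212 and 296 units at stage 21, 1.76-fold higher (log2 change 0.81, SE 0.20, adjusted p = 0.0022), which lost the threshold without stage 21 replicate 1, and 906 and 995 units at stage 48. Neither copy's arrays overlapped between the stages compared. Over the same stages the list of 10 neuron genes had a summed signal of 153 to 154 units at stage 2, 11674 to 12188 at stage 31 and 18735 to 18776 at stage 48. Of 12 genes listed, these 10 had a tested probe set. On their brightest probe sets all 10 genes were dim on both arrays at stages 2, 5 and 9, and 0 at stage 48. They thus passed the signal filter through later stages, which largely fixed a rise over stage 2 in advance. All 14 probe sets of the list were higher at stage 48 over 2 (44.7% of all tested probe sets), a count not read as a result. The part of this list in the levels of plk2 and cenpv was not tested.

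Condensin had 12 tested probe sets. Of these, 4 were higher and 2 lower at stage 5 over 2, 3 and 5 at 11 over 5, 3 and 8 at 21 over 11, 0 and 4 at 31 over 21, 0 and 12 at 48 over 31, and 0 and 12 at 48 over 2. With poly-A scaling the counts were 1 and 5 at 11 over 5 (21.0% and 37.2% of all tested probe sets). They were 5 and 5 at 21 over 11 (56.1% and 17.0% of all) and 7 and 0 at 31 over 21 (53.1% and 3.49%). Its subunits parted in the blastula and gastrula. On its tested probe set without the suffix for shared sequence, the condensin I subunit ncapd2.S had 718 and 832 units at stage 11, against 4547 and 4050.1 units at stage 5. That was a 5.55-fold fall (log2 change -2.47, SE 0.07, adjusted p = 6.86e-17). Its brightest probe set, which carries that suffix, had 844 and 831 units at stage 11, against 4378 and 4165 units at stage 5 (log2 change -2.35). The condensin I subunit ncaph.L, which closes the ring, had 4364 and 4379.9 units at stage 11, against 2237 and 2258 units at stage 5, a 1.95-fold rise (log2 change 0.96, SE 0.07, adjusted p = 4.03e-10). These changes were without overlap, and they kept their sign under all scalings tried. Subunit ncapg.L, also of condensin I, had 3792 and 3917 units at stage 11, against 3124 and 2971 units at stage 5 (log2 change 0.34, SE 0.09, adjusted p = 0.0027; not called with poly-A scaling, at 0.08). The 2 ATPases shared by both condensins had their highest mean at stage 13 on the deposited scale and later, at stage 43 for smc2.L and stages 37-38 for smc4.L, with poly-A scaling. Probe set smc2.L had 3411 and 3312 units at stage 21, against 2007 and 1983 units at stage 11, 1.69-fold higher (log2 change 0.75, SE 0.06, adjusted p = 4.94e-10), and 3990.2 and 4002 units at stage 13. Its partner smc4.L had 4068 and 4298 units at stage 13, against 2678 and 2619 at stage 9. Of condensin II, ncaph2.L had 412 and 332 units at stage 21, against 1461 and 1384 units at stage 11, 3.85-fold lower (log2 change -1.94, SE 0.13, adjusted p = 1.63e-11). Its sister subunit ncapd3.L stayed between 823 and 1120.2 units from stage 13 to 31 on the deposited scale.

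At the end of the series all 12 condensin probe sets were called lower at stage 48 over 31. With poly-A scaling 11 of them were called, and none turned its sign. Subunit ncaph.L had 245 and 307 units at stage 48, against 1235 and 1185 units at stage 31, 4.41-fold lower (log2 change -2.14, SE 0.07, adjusted p = 1.22e-15). Subunit smc4.L had 539.7 and 597 units at stage 48, against 2067 and 2140.1 units at stage 31, 3.71-fold lower (log2 change -1.89, SE 0.06, adjusted p = 6.23e-16). An earlier fall of smc4.L at stage 31 over 21 (log2 -0.59) was 0.03 with poly-A scaling, and the fall of smc2.L over the whole span (log2 -0.81) was 0.82 with it.

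Cohesin holds sister chromatids together and also shapes chromatin in cells that no longer divide, while smc5 and smc6 form another ring complex, which acts in DNA repair. In this role 1 of 7 probe sets was higher and 2 lower at stage 5 over 2, 4 and 2 at 11 over 5, 0 and 7 at 21 over 11, 1 and 3 at 31 over 21, 0 and 6 at 48 over 31, and 0 and 7 at 48 over 2. On the poly-A scale they were 0 and 2 at 11 over 5 (21.0% and 37.2% of all tested probe sets). At 21 over 11 they were 2 and 3 (56.1% and 17.0% of all). They were 5 and 0 at 31 over 21 (53.1% and 3.49%) and 1 and 3 at 48 over 2 (68.1% and 16.7%). The cohesin subunits were higher at stage 11 over 5 on the deposited scale, and none of them was called with poly-A scaling. Subunit smc3.L had 438 and 466 units at stage 11, against 309.6 and 309 units at stage 5, 1.46-fold higher (log2 change 0.55, SE 0.13, adjusted p = 6.55e-04; 0.29 with poly-A scaling), and all 3 probe sets of smc1a.L were higher, the brightest with 5564 and 5868 units at stage 11, against 4569 and 4407 units at stage 5 (log2 change 0.35, SE 0.05, adjusted p = 2.45e-06; 0.09, not called, with quantile normalization and with poly-A scaling). The repair subunits fell instead: smc6.1.L had 1069 and 1064 units at stage 11, against 2022 and 1996 units at stage 5 (log2 change -0.91, SE 0.10, adjusted p = 5.64e-08). Subunit smc5.S was lower at stage 11 than at stage 5 as well, where it had 1207 and 1125 units, and fell further. It had 276 and 268 units at stage 21, against 780.3 and 762 units at stage 11, 2.84-fold lower (log2 change -1.50, SE 0.10, adjusted p = 3.20e-11). In none of these comparisons did the arrays of the 2 stages overlap. The brightest smc1a.L probe set had 1863 and 1906 units at stage 48, against 4804 and 5183 units at stage 2, a log2 change of -1.40 that was 0.23 with poly-A scaling. For smc3.L the change was -0.77, and 0.86 with poly-A scaling, so the direction of both cohesin subunits over the span depended on the scale.

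Of the spindle factors (7 tested probe sets), 0 were higher and 0 lower at stage 5 over 2, 1 and 3 at 11 over 5, 0 and 6 at 21 over 11, 0 and 3 at 31 over 21, 0 and 7 at 48 over 31, and 0 and 7 at 48 over 2. With poly-A scaling the counts were 0 and 3 at 11 over 5 (21.0% and 37.2% of all tested probe sets). They were 1 and 3 at 21 over 11 (56.1% and 17.0% of all) and 2 and 0 at 31 over 21 (53.1% and 3.49%). The midzone crosslinker prc1.S had 589 and 552 units at stage 11, against 2105 and 2257 units at stage 5, 3.82-fold lower (log2 change -1.93, SE 0.22, adjusted p = 2.26e-07). Its other tested probe sets disagreed. One fell as well, with means of 134.6 units at stage 11 and 556.9 at stage 5. The others had 295.6 against 235.8 and 171.3 against 186.7 units, and neither was called. The microtubule nucleator tpx2, an activator of aurora A, was high up to gastrulation in both copies, with means of 5132, 4909, 4534, 5762 and 2583 units for tpx2.L at stages 2, 5, 9, 11 and 13. The rise of tpx2.S at stage 11 over 5, with 8879 and 8948 units at stage 11, against 6528 and 6508 units at stage 5 (log2 change 0.45, SE 0.07, adjusted p = 7.11e-06), was -0.06 with quantile normalization and 0.19, not called, with poly-A scaling. Later tpx2.L had 194 and 268 units at stage 48, against 1111 and 1188 units at stage 31, 5.04-fold lower (log2 change -2.33, SE 0.11, adjusted p = 2.18e-13). The spindle protein nusap1.S had 81.9 and 85.0 units at stage 21, against 505 and 459.9 units at stage 11, at least 3.36-fold lower (log2 change -2.53, SE 0.20, adjusted p = 3.44e-10). Apart from the quantile value of tpx2.S, these changes of the brightest probe sets kept their direction under each scaling, and those other than tpx2.S stayed called. In these the arrays of the 2 stages did not overlap.

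The early and late falls were read beside lists of other genes. At stage 11 the list of 5 maternal genes had a summed signal of 4766 to 5092 units, against 33625 to 34495 at stage 5. A list of 11 DNA replication and cell cycle genes had 54993 to 57108 units at stage 2, 27582 to 27786 at stage 31 and 6900 to 7509 at stage 48. Of its 18 probe sets 5 were higher and 5 lower at stage 11 over 5 (33% and 34% of all tested probe sets). At 21 over 11, 8 were higher and 10 lower (39.7% and 39.9% of all). At 48 over 31, 0 were higher and 17 lower, where 29.7% and 39.7% of all tested were. These sums and counts are on the deposited scale. Scaling to the poly-A controls raises the values of stages 31 and 48 relative to stage 2. The part of either list in the members' falls was not tested.

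Other genes of mitosis outside the families, taken from a list of 60 symbols, gave 87 tested probe sets of 41 genes. Of these 87 probe sets 13 were higher and 17 lower at stage 5 over 2 (18.3% and 13.7% of all tested probe sets). At 11 over 5 they were 22 and 42 (33% and 34% of all), and at 21 over 11, 19 and 57 (39.7% and 39.9%). At 31 over 21 they were 14 and 29 (26.9% and 25.4% of all), and at 48 over 31, 8 and 64 (29.7% and 39.7%). At 48 over 2 they were 8 and 75 (44.7% and 45.7% of all). The median change of the 87 was -0.24 (log2) at stage 11 over 5, -0.65 at 21 over 11, -0.93 at 48 over 31 and -1.99 at 48 over 2. These counts and changes are on the deposited scale. The largest of the early falls among them was that of anapc10.L, a subunit of the anaphase-promoting complex that mad2l1 restrains, with a mean of 135 units at stage 11 and 3800.0 units at stage 5 (log2 change -4.82, SE 0.12, adjusted p = 3.53e-18).

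Both copies of a gene were tested for 16 members, each with 1 probe set per copy, and the difference log2 .L minus log2 .S was compared over the stages within the arrays. It changed in 16 of 16 pairs, where 95.8% of all 1722 such pairs on the array changed. The range of the difference over the 15 stages had a median of 1.84 (log2) over the member pairs and 2.36 over all pairs. The course correlation between copies over the 15 stage means, whose arrays both copies share, had a median of 0.933 for the members and 0.820 for all pairs. A difference between probes of the 2 copies that responds to other transcripts was not tested, and kif22.L and birc5.S were read with probe sets that the array design marks as matching several transcripts.

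The pair with the smallest p was ncaph. At stage 13 ncaph.L had 3701 and 3708 units and ncaph.S 1204 and 1161; at stage 2 ncaph.L had 1744 and 1656 units and ncaph.S 1801 and 1816. The difference was 1.65 (log2) at stage 13 and -0.09 at stage 2 (adjusted p = 7.9e-13, limma F test). On the single arrays it was -0.05 and 0.07 at stage 5, 0.49 and 0.46 at stage 9, 0.98 and 0.97 at stage 11 and 1.46 and 1.46 at stage 17. For mad2l1 the difference was -4.71 at stage 13, with 40.5 and 69.3 units for .L, which are dim, and 1375 and 1405 for .S, and -0.76 at stage 2 (adjusted p = 1.48e-12). For kif15 it was -0.51 at stage 48 and -2.97 at stage 17 (adjusted p = 1.96e-11), and its copies had the least similar courses of the member pairs, with a correlation of 0.295. For plk2 the difference had the widest range, 6.80 (adjusted p = 8.26e-11), but both copies were dim at stages 2 and 5.

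**Figure D5:**
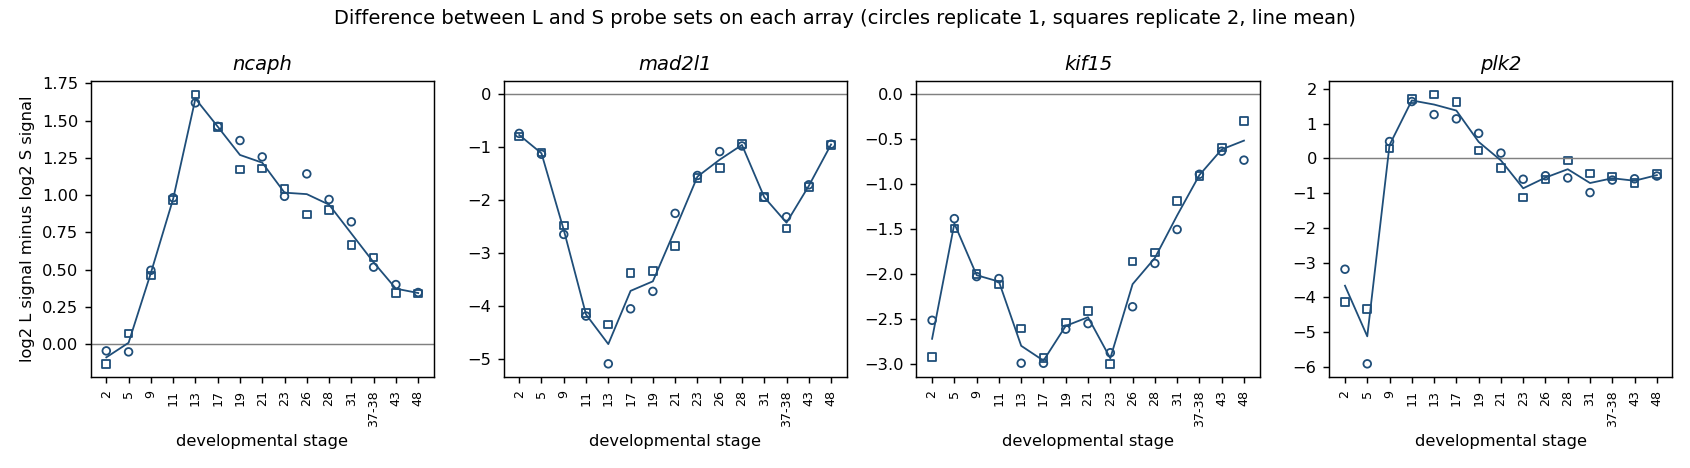
Difference log2 .L minus log2 .S (y axis) over the 15 stages (x axis) for the 4 member pairs with the smallest p, each point 1 array and each line the stage mean. The difference of ncaph is 1.65 at stage 13 and -0.09 at stage 2, that of mad2l1 reaches -4.71 at stage 13, and that of kif15 runs between -2.97 and -0.51.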

How the data were processed

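The deposited values are MAS5 signals, per the submitters' processing notes (without a stated version), on a linear intensity scale that the authors had scaled, since every array has the same trimmed mean. Each sample was total RNA of pooled whole embryos, labelled with biotin by the one-cycle protocol, per the labels' protocols and the series' design text. Gene symbols came from the platform annotation, in which 15505 probe sets have 1 symbol and 279 several. Those with several were left out before the rule was applied. All 113 member probe sets were found in RefSeq by their gene identifier. Signals were taken to log2 and fitted in limma 3.58.1 (R 4.3.3) with 1 mean per stage over 30 arrays (15 residual degrees of freedom), trend and robust variance moderation, and Benjamini-Hochberg adjustment over the 23403 tested probe sets. The 96 control probe sets were left out. The number of arrays, 2 a stage, limits the precision. Values named are, per role and comparison, the called member with the largest rise and with the largest fall whose arrays do not overlap and whose brighter stage is above the median, with a selection of other members for which every member was eligible. Copies .L and .S were compared by an F test on their difference within arrays. Members, roles and marker lists were chosen with earlier results of these data known. Alternatives were quantile normalization, median centring, scaling to poly-A controls (36 probe sets; 6 of the trp transcript were under the median on all arrays and left out), the signal filter at the 75th percentile or none, an offset of 50 units, no variance moderation options, no probe sets marked as shared, array weights, fits of the compared stages alone, a replicate block and each array left out. The fits were tested on simulated data first. Figures and tables used Python 3.11.15, pandas 2.3.3, numpy 2.4.6 and matplotlib 3.10.9.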

Additional observations from a re-analysis of the deposited data

How the results depend on the processing

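Of 572 counts of members recomputed under the alternatives, 558 stayed within 1.5 times the reported count. The other 14 belonged to 5 comparisons. Most alternatives left out a single array, often of a stage not compared, which leaves little room for a count to move. The 572 also hold the F test counts, and nearly all probe sets and pairs of the array passed those tests. At stage 5 over 2 the higher members were 10 with median centring (14.3% of all tested probe sets) and 6 with poly-A scaling (10.2%). They were 28 when only the stages compared were fitted, a fit whose share of all tested probe sets is not given. The lower members were 5 with poly-A scaling (4.17% of all). Poly-A scaling gave 5 higher members at stage 11 over 5 (21.0% of all tested probe sets), 26 higher and 37 lower at 21 over 11 (56.1% and 17.0% of all), 47 higher and 2 lower at 31 over 21 (53.1% and 3.49%), and 11 higher at 48 over 2 (68.1%). Median centring gave 5 higher and 52 lower at 31 over 21 (19.4% and 37.7% of all). Leaving out each array in turn gave 10 to 18 higher and 15 to 24 lower at 5 over 2, 15 to 21 and 43 to 52 at 11 over 5, 9 to 10 and 68 to 76 at 21 over 11, 8 to 12 and 25 to 34 at 31 over 21, 5 to 8 and 78 to 80 at 48 over 31, and 4 to 4 and 93 to 94 at 48 over 2. Shares of all tested probe sets are not given for these fits. The counts of 10 and 15 came without stage 2 replicate 2 and without stage 5 replicate 2. The cause of these changes was not tested. All 99 members and all 16 pairs passed their F tests without any one array.

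With a replicate block the counts were 17 higher and 23 lower at 5 over 2 (18.2% and 13.6% of all tested probe sets). They were 17 and 50 at 11 over 5 (32.9% and 34.0% of all) and 10 and 76 at 21 over 11 (39.7% and 39.8%). At 31 over 21 they were 10 and 30 (26.9% and 25.3%), at 48 over 31, 8 and 79 (29.6% and 39.7%), and at 48 over 2, 4 and 94 (44.7% and 45.8%). The replicate numbers share only a name: deviations of same-numbered arrays correlated between -0.059 and 0.041 over the 105 pairs of stages.

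Of 2901 alternative values of the 71 changes picked by the naming rule, 2844 kept direction and threshold, 48 lost the threshold and 9 reversed. Most of these values came from leaving out a single array, often of a stage not compared, where the log2 change cannot move. Counted by change, 24 of the 71 lost the threshold or direction under any alternative, 21 of them with poly-A scaling. The reversed ones were kif20a.L at 11 over 5 (-0.0843 quantile, -0.038 poly-A) and tpx2.S (-0.0646 quantile), and, with poly-A scaling, bub1.L at 21 over 11 (0.0305), cenpn.S (0.221), smc1a.L (0.3718), smc4.L (0.0269) and tpx2.L (0.2237) at 31 over 21, and kif3b.S at 48 over 2 (0.173). Of them, smc1a.L alone was called, at an adjusted p of 0.0336 in limma. Poly-A scaling, chosen after seeing the data for these 4 descriptions, gave 54 members highest at stages 2 to 11, 44 lowest at stage 48, 25 with a mean below both neighbours at stage 26 and 15 with arrays below theirs. Scaling to controls and signals under the array median are limits: below that median the order of values may be noise.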

Other observations

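On the deposited scale a dip at stage 26, chosen for description after the data were seen, interrupted the slower decline of the family. Of the 99 tested members, 60 (60.6%) had a lower mean at stage 26 than at both stage 23 and stage 28, where 25.9% of all tested probe sets did, and for 39 of them the arrays of stage 26 lay below those of both neighbours, as for 11.95% of all tested probe sets. The condensin I subunit ncapg.L had 1959 and 1961 units at stage 23, 1002 and 1171 at stage 26 and 1610.2 and 1465 at stage 28. Its partner ncaph.L had means of 1644, 1141 and 1321 units, the motor kif11.L 1148, 864 and 1059.9 and the checkpoint adaptor bub3.L 2889.8, 2339.5 and 2775 units at the same stages. The list of DNA replication and cell cycle genes had a summed signal of 28092 to 28412 units at stage 23, 23661 to 23850 at stage 26 and 27653 to 28468 at stage 28. The other genes of mitosis had 38093 to 38655, 34688 to 35523 and 38839 to 39190 units at these stages. Both list sums are given on the deposited scale alone. The poly-A controls had a geometric mean of 360.2, 295.3 and 255.8 units at stages 23, 26 and 28, so scaling to them raises stage 26 relative to stage 23. Leaving out each array of stages 23, 26 and 28 in turn gave 54 to 62 members, and 24.9% to 27.5% of all tested probe sets. Median centring gave 62 members (29.3% of all tested), and poly-A scaling 25 (15.4% of all tested), with the arrays below both neighbours for 15 members and 5.25% of all tested. The summed signal of the family did not dip with poly-A scaling. It was then 50.6% of stage 2 at stage 23, 55.6% at stage 26 and 70.2% at stage 28.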
